A study of Mus musculus with 20 samples.

Results

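DNA replication genes were described in white adipose tissue (WAT) and liver of staggerer (sg/sg) and wild-type (WT) mice. The list holds 35 genes whose products load, start and run the replication fork, supply its nucleotides or rebuild chromatin behind it. Members were taken by gene name in the scanner files, with Cdc45 under its older name Cdc45l. The name rule found 33 of the 35, measured by 47 of the 41174 probes of the array. Dna2, the nuclease and helicase that trims long flaps, was found only through its accession, so its values are given apart and it is not among the 33. Gins2 was not analysed here.

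The 20 arrays fall into 4 groups of 5 arrays, namely sg/sg WAT, WT WAT, sg/sg liver and WT liver. All mice were C57BL/6 males aged 5 months. The sg/sg mice carry 2 copies of staggerer, a natural deletion within Rora, which encodes the nuclear receptor RORa, in every cell of the body. All groups had been on a high fat diet (35% fat) for 6 weeks, so no group shows these genes on another diet. RNA came from 5 mice of each genotype. The fat depot is not named, nor is it stated whether arrays of liver and WAT with equal numbers share a mouse.

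Replication starts when the origin recognition complex, Cdc6 and Cdt1 load the ring of Mcm2 to Mcm7 onto DNA in G1. Cdc45 and the GINS complex then turn the ring into the active helicase, and polymerases, a sliding clamp and its loader copy both strands. Most of these genes are E2F targets that are transcribed around the start of S phase, so in a tissue their transcripts are widely used as a sign of cycling cells. Adult hepatocytes and mature adipocytes are mostly quiescent, and in obese fat proliferating macrophages and adipocyte precursors are known sources of such transcripts.

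Across arrays, the intensity at the 75th percentile was 1352 to 2053 on sg/sg WAT arrays, 1936 to 2598 on WT WAT arrays, 648 to 901 on sg/sg liver arrays and 817 to 1090 on WT liver arrays. Levels below are log2 of the processed intensity minus that percentile of the same array, so 0 means a signal at the percentile, and array values are listed from replicate 1 to 5. Differences are sg/sg minus WT with the standard error (SE) of a limma fit, and a gene is called at an adjusted p under 0.05 over all genes tested in its tissue. Rora itself was lower in sg/sg mice by 2.72 ± 0.15 in WAT and by 2.88 ± 0.12 in liver (SE, n = 5 each), with every sg/sg array below every WT array. Where its probe lies relative to the deletion was not tested. Adipoq, the adipocyte hormone adiponectin, averaged 7.38 ± 0.10 in sg/sg WAT and 6.95 ± 0.26 in WT WAT (SD, n = 5 each) and was well above background on only 1 of the 10 liver arrays. Alb, the liver's albumin, averaged 9.78 ± 0.26 in sg/sg liver and 9.42 ± 0.18 in WT liver (SD, n = 5 each). In WAT its level lay from -0.41 to 1.67 on sg/sg arrays and from -3.39 to 2.32 on WT arrays, with all arrays well above background.

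In WAT, 29 of the 33 members were lower in sg/sg mice and 0 were higher, while over all 22287 genes 9.45% were called lower and 14.4% higher. All 33 fitted differences were negative, with a median of -0.73, beside a median of 0.09 over all genes. For 24 members every sg/sg array lay below every WT array, a pattern found in that direction in 8.53% of all genes and in the other direction in 13.3%. At least a 2-fold lower level was fitted for 11 members, and for 7 without WT replicate 2. The share of all genes past that size was not counted. All 33 members were well above background on all 10 WAT arrays. In such whole-tissue samples, fewer cells of a type and less RNA per cell cannot be told apart. With normexp background correction the count of lower members was 11 in place of 29, while the calls over all genes in that direction were 691 in place of 2107 and the median of all genes was 0.41.

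**Figure D1:**
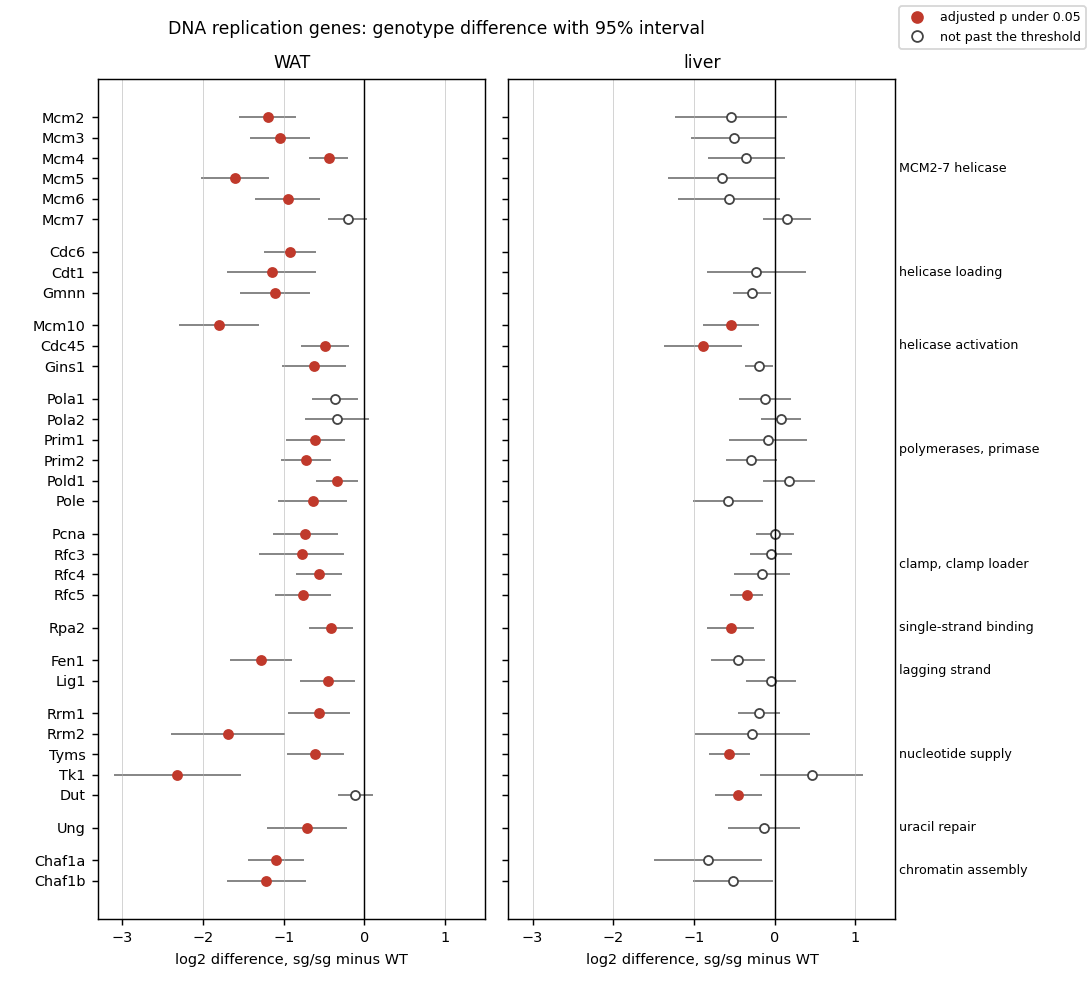
Fitted log2 difference, sg/sg minus WT, with its 95% interval for each of the 33 members, in WAT (left) and liver (right), grouped by role; filled points passed the adjusted p threshold. All WAT points lie left of 0 and 29 of them are filled, while 6 liver points are filled and Cdc6 has none because it was not tested there.

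Of the 6 subunits of the replicative helicase ring, 5 were called lower. Mcm5 had levels of -0.81, -0.86, -0.45, -0.48 and -0.72 in sg/sg WAT and of 1.16, 1.51, 0.69, 0.76 and 0.57 in WT WAT. All sg/sg arrays were below 0 and all WT arrays above it, which gave a difference of -1.60 ± 0.18 (limma adjusted p = 0.000721), a 3.03-fold lower level. Mcm2 had levels of -1.51, -1.53, -1.21, -1.05 and -1.40 in sg/sg WAT and of -0.14, 0.33, -0.30, -0.22 and -0.38 in WT WAT. The groups did not overlap, and the difference was -1.20 ± 0.15 (adjusted p = 0.00103). Mcm3 had levels of 0.57, 0.75, 0.98, 1.0 and 0.79 in sg/sg WAT and of 1.85, 2.41, 1.63, 1.82 and 1.61 in WT WAT. Here too the highest sg/sg array lay well below the lowest WT array, with a difference of -1.05 ± 0.16 (adjusted p = 0.00200). Mcm6 fell by 0.95 ± 0.17 and Mcm4 by 0.44 ± 0.10, and both were separated between genotypes. Mcm7 differed by -0.21 ± 0.10 and did not pass (adjusted p = 0.185), with overlapping arrays.

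All 3 genes of helicase loading fell. Cdc6, the ATPase that helps place the ring, had levels of -3.81, -3.64, -3.86, -4.13 and -3.64 in sg/sg WAT and of -2.99, -2.55, -2.77, -3.15 and -2.99 in WT WAT. The groups did not overlap, by a narrower gap than for Mcm2, Mcm3 or Mcm5, and the difference was -0.92 ± 0.14 (adjusted p = 0.00190). Cdt1, its partner in loading, was lower by 1.15 ± 0.24 on the log2 scale, and Gmnn, which encodes the Cdt1 inhibitor geminin, was lower by 1.11 ± 0.19. The loader and its inhibitor were thus both called in the same direction.

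Among the genes that activate the loaded helicase, Mcm10 changed most. Its levels were -2.55, -2.29, -2.24, -2.19 and -2.31 in sg/sg WAT and -0.37, 0.23, -0.59, -0.74 and -1.12 in WT WAT. The sg/sg arrays spanned a narrow band more than 1 log2 unit under the lowest WT array, and the difference was -1.80 ± 0.22 (adjusted p = 0.000868), or 3.48-fold. Cdc45, a subunit of the active helicase, fell by 0.48 ± 0.13, and Gins1, of the GINS complex, fell by 0.62 ± 0.17. The Gins1 arrays overlapped between genotypes.

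Of 6 polymerase and primase genes, 4 were lower, namely the primase subunits Prim1 (-0.61 ± 0.16) and Prim2 (-0.73 ± 0.13) and the catalytic subunits of the lagging and leading strand polymerases, Pold1 (-0.34 ± 0.11) and Pole (-0.64 ± 0.19). Pold1 was close to the threshold (adjusted p = 0.0493). Pola1 and Pola2, subunits of polymerase alpha, which extends primers, differed by -0.36 ± 0.12 and -0.34 ± 0.18 and did not pass. All 4 genes of the clamp and its loader fell, by 0.56 to 0.78. They are Pcna, which encodes the ring that holds the polymerase (-0.73 ± 0.18), and the loader subunits Rfc3 (-0.78 ± 0.23), Rfc4 (-0.56 ± 0.12) and Rfc5 (-0.76 ± 0.15). Rpa2, a subunit of the protein that coats single-stranded DNA, fell by 0.41 ± 0.12.

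Of the enzymes that finish the lagging strand, the flap nuclease Fen1 had levels of -1.68, -1.52, -1.56, -1.88 and -1.5 in sg/sg WAT and of -0.16, 0.17, -0.49, -0.57 and -0.71 in WT WAT. The separation was complete, with a difference of -1.28 ± 0.17 (adjusted p = 0.00113). Lig1, the ligase that seals the fragments, fell by 0.45 ± 0.15 (adjusted p = 0.0469), with overlapping arrays. Dna2, outside the counts, averaged -3.66 ± 0.24 in sg/sg WAT and -2.47 ± 0.13 in WT WAT (SD, n = 5 each), a difference of -1.19 ± 0.13 (adjusted p = 0.000605).

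Nucleotide supply held the largest and the smallest difference of all members. Tk1, the thymidine kinase of S phase, had levels of -2.82, -1.88, -1.56, -2.05 and -2.0 in sg/sg WAT and of 0.39, 1.35, 0.04, 0.16 and -0.65 in WT WAT. The groups did not overlap, although the WT arrays lay far apart from one another, and the difference was -2.32 ± 0.35 (adjusted p = 0.00182), or 4.99-fold. Rrm2, the regulated subunit of ribonucleotide reductase, fell by 1.69 ± 0.31, and its partner Rrm1 fell by 0.56 ± 0.17. Tyms, which makes thymidylate, had levels of 0.21, 0.58, 0.63, 0.87 and 0.54 in sg/sg WAT and of 1.14, 1.57, 1.16, 1.11 and 0.89 in WT WAT. The highest sg/sg array nearly reached the lowest WT array, and Tyms fell by 0.61 ± 0.15 (adjusted p = 0.0172). Dut, which removes dUTP, differed by -0.11 ± 0.09 and did not pass (adjusted p = 0.419). Ung, the glycosylase that removes uracil from DNA, fell by 0.71 ± 0.22 with overlapping arrays.

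Both subunits of the chromatin assembly factor CAF-1 in the list fell. Chaf1a had levels of -1.43, -1.25, -1.31, -1.55 and -1.48 in sg/sg WAT and of -0.29, 0.15, -0.38, -0.30 and -0.72 in WT WAT. The sg/sg arrays lay close together and none reached the WT range, with a difference of -1.10 ± 0.15 (adjusted p = 0.00128). Chaf1b fell by 1.21 ± 0.22 and was also separated.

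**Figure D2:**
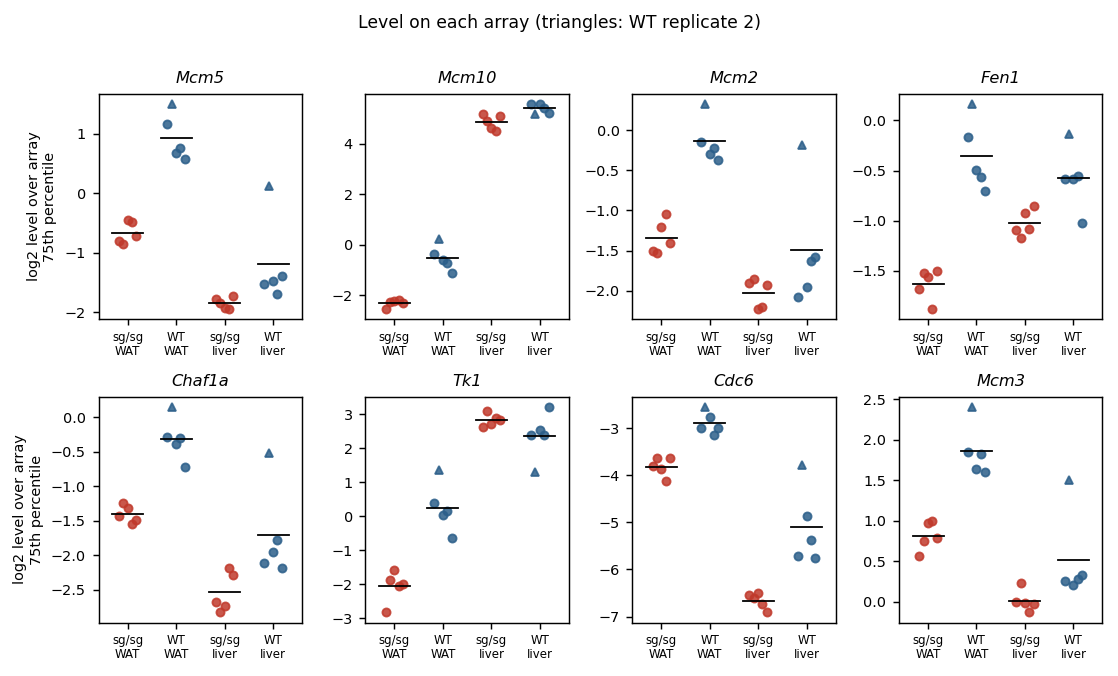
Level of the 8 members with the smallest p in WAT on each array (log2 over the array's 75th percentile), in sg/sg WAT, WT WAT, sg/sg liver and WT liver; bars are group means and triangles mark WT replicate 2. In WAT the genotypes do not overlap for any of the 8 genes, and in liver WT replicate 2 stands above the other WT arrays for 6 of them; most Cdc6 values in liver are not well above background.

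WT replicate 2 stood apart in both tissues. It also had the highest 75th percentile and the largest share of probes well above background in each tissue. These were 2598 and 81.1% in WAT and 1090 and 62.4% in liver. The share of all genes for which it was the highest array is not given. Whether its high values were particular to the members was not tested. In WAT, replicate 2 was the highest of the 10 arrays for 30 of the 33 members. Its median deviation from the WT mean was 0.46, while the other WT WAT arrays lay between -0.27 and 0.07. The sg/sg WAT arrays had median deviations between -0.87 and -0.55, so none overlapped with a WT array. The SD among arrays had a median over members of 0.17 in sg/sg WAT and 0.31 in WT WAT, and was larger in WT for 26 of the 33. Without WT replicate 2 the WT median was 0.18 and 15 members had the larger SD in WT. Taking out the array that was highest for most members lowers the WT SD by itself. The drop is therefore not read as a result about the spread of the genotypes. Leaving that array out kept all 33 differences negative, with a median of -0.63, 24 members called lower and 24 separated. The calls of Lig1, Pold1, Pole, Rfc3 and Ung were not made without it. Leaving out other single arrays also ended these calls. They were made in 2, 1, 4, 5 and 2 of the 10 fits that each left out a single array. Gins1 and Rrm1 were called in 4 of these fits each and Rpa2 in 6. Across these fits 21 to 29 members were called lower. Over all 22287 genes 1972 were called lower and 2856 higher without WT replicate 2. The share of all genes then separated was not counted, and separation is easier to reach with fewer arrays.

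**Figure D3:**
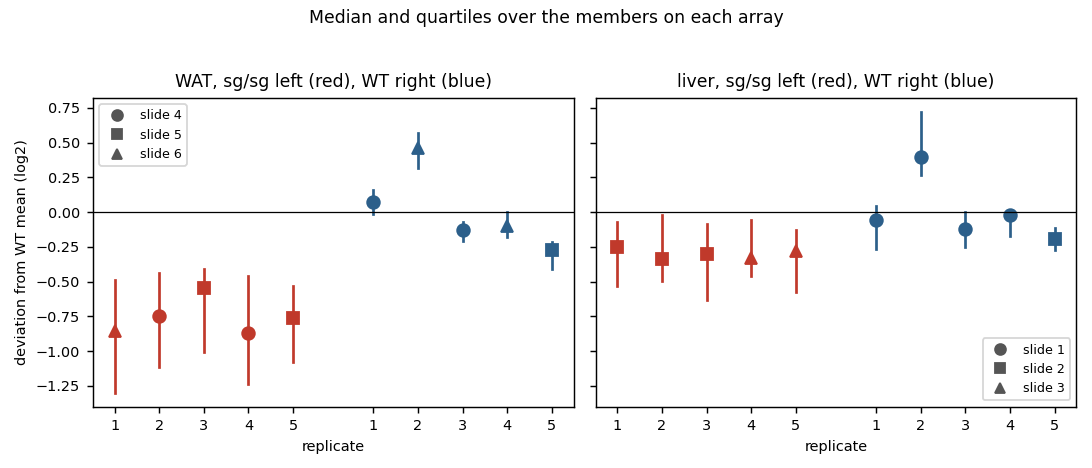
Median (points) and quartiles (lines) over the members of the deviation from the WT mean (log2), for each array of WAT (33 members, left panel) and liver (32 members, right panel), sg/sg arrays left of WT arrays, with point shapes for slides. WT replicate 2 is the highest array in both tissues, at 0.46 in WAT and 0.40 in liver, and all sg/sg WAT arrays lie under every WT WAT array.

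Each of the 3 WAT slides held both genotypes. Within slide 4 (2 sg/sg and 2 WT arrays) the 33 differences were all negative, with a median of -0.74. Within slide 5 (2 sg/sg arrays and 1 WT array) they were all negative with a median of -0.35, and within slide 6 (1 sg/sg array and 2 WT arrays) with a median of -0.96. No gene of the array was called within a slide at these sizes, and 18, 14 and 12 members had an unadjusted p under 0.05 within slides 4, 5 and 6. With slide as a fixed block 22 members were called lower, with a median of -0.68, beside 1835 of all 22287 genes called lower. The share of all genes at an unadjusted p under 0.05 was not counted within the slides.

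**Figure D4:**
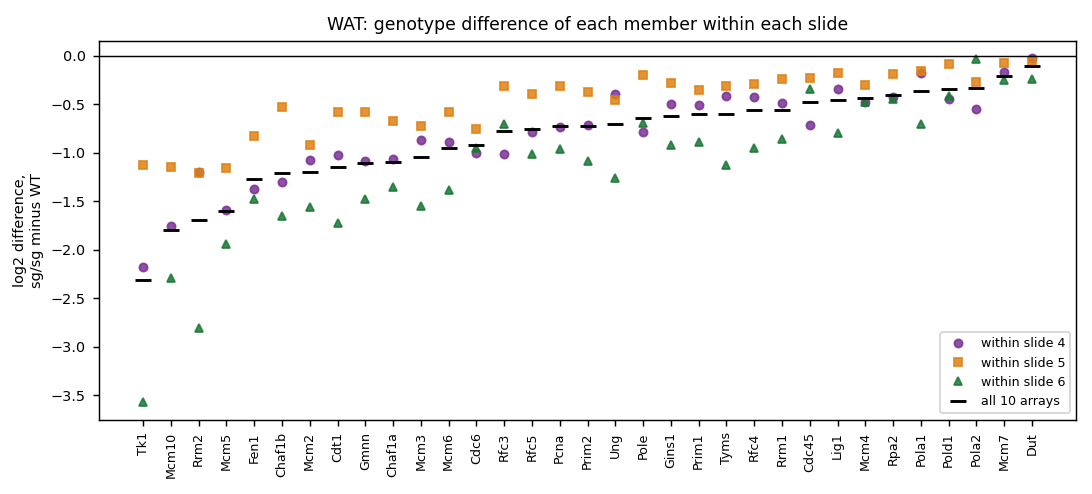
Log2 difference, sg/sg minus WT, of each member in WAT within slides 4, 5 and 6 (symbols) and over all 10 arrays (black bars), ordered by the value over all 10 arrays. All symbols lie under 0, down to -3.58 for Tk1 within slide 6, and slide 5 gives the smallest difference for most members.

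In liver, 32 members could be tested, 6 were lower in sg/sg mice and 0 were higher. Over all 17291 genes tested in liver 7.06% were called lower and 9.26% higher. The median difference of the members was -0.28, beside 0.05 over all genes, with 27 negative and 5 positive. For 4 members every sg/sg liver array lay below every WT liver array, a pattern of 5.81% of all genes, and for 0 members every sg/sg array lay above, as in 7.02% of all genes. Cdc6 was not tested in liver, since it was well above background on 0 sg/sg arrays and on 2 WT arrays.

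The 6 genes came from 4 roles. Tyms had levels of 1.42, 1.66, 1.47, 1.66 and 1.51 in sg/sg liver and of 2.14, 2.38, 2.08, 2.12 and 1.80 in WT liver. The groups did not overlap, and the difference of -0.56 ± 0.11 (adjusted p = 0.0132) was close to that in WAT. Rfc5 had levels of 0.63, 0.60, 0.75, 0.82 and 0.76 in sg/sg liver and of 0.98, 1.28, 0.99, 1.09 and 0.94 in WT liver. It was separated too, by a narrow gap, with a difference of -0.35 ± 0.09 (adjusted p = 0.0260). Mcm10 had levels of 5.17, 4.88, 4.60, 4.49 and 5.10 in sg/sg liver and of 5.57, 5.17, 5.57, 5.42 and 5.23 in WT liver. Its highest sg/sg array and its lowest WT array nearly touched, and the difference was -0.54 ± 0.15 (adjusted p = 0.0354).

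The remaining 3 called genes overlapped between genotypes. Rpa2 had levels of -0.21, -0.38, -0.46, -0.36 and -0.54 in sg/sg liver and of 0.09, 0.50, 0.18, 0.20 and -0.22 in WT liver. WT replicate 5 lay at the level of the highest sg/sg array, and the difference was -0.54 ± 0.13 (adjusted p = 0.0215). Dut had levels of 1.64, 1.18, 1.20, 1.40 and 1.17 in sg/sg liver and of 1.84, 2.03, 1.67, 1.78 and 1.5 in WT liver. Here sg/sg replicate 1 reached into the WT range, with a difference of -0.45 ± 0.12 (adjusted p = 0.0358). Cdc45 had levels of -4.92, -4.24, -4.85, -4.89 and -4.82 in sg/sg liver and of -4.25, -3.14, -3.88, -3.84 and -4.17 in WT liver. It was dim, well above background on 2 sg/sg and 5 WT arrays, and differed by -0.89 ± 0.21 (adjusted p = 0.0233).

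The MCM ring did not pass in liver. Mcm2, Mcm3, Mcm4, Mcm5 and Mcm6 differed by -0.54, -0.51, -0.35, -0.65 and -0.56, with SEs from 0.21 to 0.31, and Mcm7 by 0.16 ± 0.13. Without WT liver replicate 2 the values of Mcm2 to Mcm6 were -0.21, -0.26, -0.14, -0.33 and -0.26, and that of Mcm7 was 0.25. Mcm5 was the fourth separated member (adjusted p = 0.152). Of the other genes not called, Chaf1a (-0.83 ± 0.30), Pole (-0.57 ± 0.19), Chaf1b (-0.51 ± 0.22) and Fen1 (-0.45 ± 0.15) had the most negative values. Gmnn (-0.28), Prim2 (-0.29), Rrm2 (-0.27), Cdt1 (-0.23), Rrm1 (-0.19), Gins1 (-0.19), Rfc4 (-0.16), Ung (-0.13), Pola1 (-0.12), Prim1 (-0.08), Rfc3 (-0.04) and Lig1 (-0.04) were smaller. Pcna (0.01), Pola2 (0.08), Pold1 (0.18) and Tk1 (0.46 ± 0.28) had positive values and did not pass. Dna2 went the other way in liver, at 0.00 ± 0.08 in sg/sg liver and -0.62 ± 0.11 in WT liver (SD, n = 5 each), a difference of 0.62 ± 0.08 (adjusted p = 0.00336).

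WT liver replicate 2 was the highest of the 10 liver arrays for 26 of the 32 members. It was at the same time the lowest for Tk1, at 1.29 beside 2.39 to 3.21 on the other WT arrays. For Mcm10 it was the lowest WT array, at 5.17 beside 5.23 to 5.57 on the others. Without this array the liver difference was 0.20 for Tk1 and -0.60 for Mcm10. Without it the median difference was -0.19, 23 members were negative, and 6 were called lower, among them Mcm5 (-0.33 ± 0.09, adjusted p = 0.0487) in place of Dut. Over all 17291 genes 793 were called lower and 915 higher without WT liver replicate 2. Without WT liver replicate 3, and likewise without WT liver replicate 4, 1 member was called, beside 565 and 458 of all genes called lower. Genotype and slide overlap in liver only on slide 2, with 3 sg/sg arrays and 1 WT array. Within it, and with slide as a fixed block, 0 members were called (limma; 3 and 0 at an unadjusted p under 0.05), 20 of 32 differences were negative and their median was -0.12. Over all 17291 genes the fixed block left 2 called lower and 0 higher, and within slide 2 none was called, so these counts say nothing particular about the members. The share of all genes at an unadjusted p under 0.05 was not counted in these liver fits. The part of slide in the liver differences cannot be told apart from genotype on the other 2 slides.

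The test of whether the genotype difference differed between tissues used all 20 arrays. With RNA from 5 mice of each genotype and 5 arrays of each tissue, WAT and liver arrays would share mice. Which arrays pair is not stated. No term for mouse was in the fit, so arrays of a shared mouse were treated as independent. Genes that passed the background filter in either tissue entered, among them Cdc6, which passed only in WAT. The WAT difference minus the liver difference had a median of -0.44 over the 33 members, beside 0.02 over all 22485 genes, and was negative for 29. It passed for 6 members, all with the more negative value in WAT, and for 0 in the other direction, beside 8.61% of all genes below and 8.85% above. Tk1 differed by -2.32 in WAT and by 0.46 in liver, an interaction of -2.78 ± 0.47 (adjusted p = 0.000636). Rrm2 gave -1.42 ± 0.47, Mcm10 -1.26 ± 0.27, Fen1 -0.83 ± 0.23, Gmnn -0.83 ± 0.22 and Pcna -0.74 ± 0.21. Pcna is the case in which the liver difference was nearest to 0. Dna2 gave -1.81 ± 0.15. Without WT liver replicate 2, 17 members passed in place of 6, without WT replicate 2 of both tissues 11 passed, and with slide as a fixed block 0 passed (10 at an unadjusted p under 0.05). The share of all genes at that unadjusted p was not counted, so the 10 have no background to be judged by. Over all 22485 genes the calls below and above were 1832 and 2033 without WT liver replicate 2, 1759 and 1918 without WT replicate 2 of both tissues, and 299 and 402 with slide as a fixed block, beside 1935 and 1990 with all arrays and no block.

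Levels of the members differed between the tissues. In WT mice 18 of the 33 were higher in WAT than in liver and 8 were lower, beside 33.8% and 42% of all genes, with a median difference of 0.64 for the members and -0.18 for all genes. Mcm5, Cdc45 and Cdt1 were higher in WT WAT by 2.13, 1.98 and 1.51 on the log2 scale. Cdc6 is counted among the 18, but it was well above background on only 2 of the 5 WT liver arrays. It passed the filter through WAT alone, so its call is no support and the size of its difference is not given. The shares of all genes likewise hold genes that passed the filter in only 1 tissue. Tk1 was lower in WT WAT (0.26 ± 0.72) than in WT liver (2.37 ± 0.69), and Gins1, Rfc4, Tyms, Gmnn, Rfc5 and Dut were lower by 0.30 to 1.08. Tissue and slide cannot be told apart, since each slide carried 1 tissue.

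Mcm10 stood far from the others in this contrast. Its mean level was -0.52 ± 0.50 in WT WAT and 5.39 ± 0.19 in WT liver (SD, n = 5 each), a difference of -5.91 ± 0.19, or 60.1-fold. Its 1 probe, at chr2:4908072-4908131 of build mm7 on the minus strand, is shown because this liver level rests on it alone.
Mcm10 probe: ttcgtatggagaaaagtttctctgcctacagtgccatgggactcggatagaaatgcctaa

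**Figure D5:**
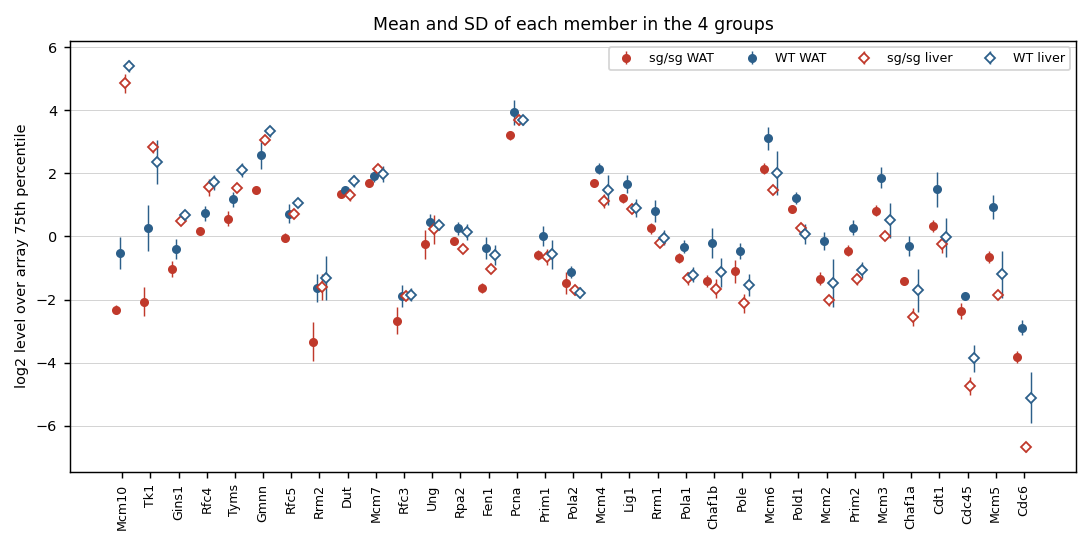
Mean and SD (n = 5) of each member's level (log2 over the array's 75th percentile) in sg/sg WAT, WT WAT, sg/sg liver and WT liver, ordered by the WT difference between WAT and liver. Filled points are WAT and open points liver; Mcm10 and Tk1 at the left lie far higher in liver, and Cdc6, whose liver signal was mostly not well above background, is at the right.

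Probes of the same gene mostly moved alike. In WAT 42 probes were tested and 32 were lower, beside 9.14% of all probes, while 0 were higher, beside 12.8%. In liver 39 were tested, 8 were lower, beside 6.49%, and 0 were higher, beside 8.1%. Of 8 genes with at least 2 tested probes in WAT and 6 in liver, 1 in each tissue, Tyms, had probes of both signs. The 3 Tyms probes are shown for that reason, all on chr5 of mm7, minus strand, with capitals for the 40 bases that the brighter pair share except for 1 mismatched base.
Tyms probe A_51_P398366, chr5:29093977-29094036: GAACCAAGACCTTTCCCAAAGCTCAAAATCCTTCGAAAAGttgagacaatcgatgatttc
Tyms probe A_52_P292651, chr5:29093997-29094890: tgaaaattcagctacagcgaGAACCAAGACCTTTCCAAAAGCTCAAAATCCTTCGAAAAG
Tyms probe A_51_P375761, chr5:29094245-29094304: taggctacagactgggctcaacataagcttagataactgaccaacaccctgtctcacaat

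The overlapping pair of Tyms probes gave -0.61 ± 0.15 and -0.61 ± 0.14 in WAT and -0.56 ± 0.11 and -0.53 ± 0.11 in liver, all past the threshold. The probe named for X14489 lies inside the span over which A_52_P292651 is split, and no mm7 annotation was used to say what is there. It was dim, with levels from -8.07 to -6.61 in sg/sg WAT and from -7.72 to -6.94 in WT WAT, and differed by 0.12 ± 0.28 in WAT and 0.79 ± 0.27 in liver, neither past the threshold. Averaging the 3 probes ended the Tyms calls in both tissues. The 2 Pold1 probes gave -0.34 and -0.44 in WAT, and the 2 Rpa2 probes gave -0.54 and -0.47 in liver.

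Since most members fell together in WAT, their promoters were searched for the E2F words TTTGGCGC, TTTCCCGC, TTTCGCGC and TTTGCCGC on both strands. RefSeq sequences (GRCm38.p6) from 250 bases before to 50 after the start were at hand for 29 of the 35 listed genes, in 33 promoters. A word was present in 10 of the 33 (30.3%), beside 2.26% of all 32851 promoters. Words of neighbouring or opposite strands can overlap, as in Mcm5 and Mcm6. The GC box GGGCGG was present in 66.7% of member promoters and 35.7% of all, the CCAAT box in 48.5% and 37.4%, and AGGTCA, the core of the ROR binding site, in 9.09% and 16.3%. In WAT the 10 tested members with an E2F word differed by -1.60 to -0.21 (median -0.85, 8 called lower), and the 18 without by -2.32 to -0.11 (median -0.72, 16 called lower). In liver the 9 tested members with a word differed by -0.65 to 0.18 (median -0.12, 0 called lower), and the 18 without by -0.89 to 0.46 (median -0.40, 6 called lower). In both tissues the ranges overlap over most of their length, and a match is a description of letters, not of binding.

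The 250 bases before the start are shown for the called genes with a word wholly inside them, and for Tk1, the member with the largest fall in WAT, in which no word was found. Capitals mark the words, which begin 153 and 149 bases before the start of Mcm5, 110, 106 and 47 before that of Mcm6, 138 before that of Cdc6 and 10 before that of Rfc3.
Mcm5, chr8:75109259-75109508, plus strand: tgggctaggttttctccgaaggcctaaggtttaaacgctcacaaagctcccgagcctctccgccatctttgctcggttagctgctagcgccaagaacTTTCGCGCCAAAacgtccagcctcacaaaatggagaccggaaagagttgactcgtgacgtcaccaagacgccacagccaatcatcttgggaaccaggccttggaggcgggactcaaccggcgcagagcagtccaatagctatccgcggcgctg
Mcm6, chr1:128359706-128359955, minus strand: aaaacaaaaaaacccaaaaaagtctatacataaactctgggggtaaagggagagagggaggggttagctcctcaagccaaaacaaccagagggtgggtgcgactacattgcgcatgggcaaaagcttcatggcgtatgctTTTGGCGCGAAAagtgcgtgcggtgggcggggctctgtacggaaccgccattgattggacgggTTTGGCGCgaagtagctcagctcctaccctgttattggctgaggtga
Cdc6, chr11:98907901-98908150, plus strand: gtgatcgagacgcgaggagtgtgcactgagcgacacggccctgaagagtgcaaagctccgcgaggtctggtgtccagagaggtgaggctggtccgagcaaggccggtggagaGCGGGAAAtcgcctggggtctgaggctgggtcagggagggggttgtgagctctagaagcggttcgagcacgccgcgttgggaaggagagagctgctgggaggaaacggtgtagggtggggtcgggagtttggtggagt
Rfc3, chr5:151651209-151651458, minus strand: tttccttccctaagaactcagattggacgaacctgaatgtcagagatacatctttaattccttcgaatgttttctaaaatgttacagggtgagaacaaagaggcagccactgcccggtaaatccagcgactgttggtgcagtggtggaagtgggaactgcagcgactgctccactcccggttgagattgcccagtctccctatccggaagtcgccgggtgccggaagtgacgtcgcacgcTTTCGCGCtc
Tk1, chr11:117826015-117826264, minus strand: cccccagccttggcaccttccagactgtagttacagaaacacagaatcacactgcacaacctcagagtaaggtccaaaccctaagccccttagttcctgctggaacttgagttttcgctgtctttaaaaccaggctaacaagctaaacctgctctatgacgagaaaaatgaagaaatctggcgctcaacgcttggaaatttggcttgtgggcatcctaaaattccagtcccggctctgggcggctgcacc

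Other genes of the cell cycle were read from lists that do not hold the members. The counts stand beside shares over all genes of 9.45% lower and 14.4% higher in WAT, and 7.06% and 9.26% in liver. Of 48 other replication factors, 15 were lower and 1 was higher in sg/sg WAT, with a median of -0.12. The smallest p belonged to Dbf4, the activator of the kinase Cdc7 (-1.28 ± 0.11), Dscc1, of an alternative clamp loader (-1.67 ± 0.20), Rnaseh2b, of the nuclease that removes ribonucleotides (-1.02 ± 0.12), and Orc1, of the origin recognition complex (-1.78 ± 0.24). The higher one, named after its value was seen, was Rrm2b, an alternative subunit of ribonucleotide reductase (0.64). In liver 2 of the 43 tested were lower, Orc5 (-0.55 ± 0.11) and Rnaseh2b (-0.59 ± 0.15). Of 13 E2F and RB family genes in WAT, 3 were lower and 1 was higher. They were E2f8 (-2.07 ± 0.21) and E2f7 (-0.62 ± 0.19), the repressors of the family that are themselves targets of it, the activator E2f1 (-0.79 ± 0.09), and E2f5 (0.43 ± 0.09), a partner of RB-like proteins. In liver 0 were lower, and E2f2 (1.29 ± 0.18) and E2f5 (0.48 ± 0.11) were higher.

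Of 18 genes of the entry into S phase, including cyclins, CDKs and inhibitors, 6 were lower and 2 were higher in sg/sg WAT. Among them Ccna2, the cyclin of S phase, fell by 1.92 ± 0.29, Cdk1 by 1.99 ± 0.41 and Ccne1 by 1.06 ± 0.22, and the CDK inhibitor Cdkn1c was higher by 1.0 ± 0.14. In liver 4 of 17 were lower and 2 were higher, beside 7.06% and 9.26% of all genes. Ccne2 was lower by 1.19 ± 0.23 and Ccnd1 by 1.08 ± 0.28, and Cdc25a and Ccnd2 were higher by 0.52 ± 0.10 and 0.33 ± 0.10. All 19 mitotic genes measured were lower in sg/sg WAT, with a median of -1.78, among them Bub1 (-2.37 ± 0.30), Tpx2 (-2.15 ± 0.30), Mki67 (-1.93 ± 0.28) and Aurkb (-1.76 ± 0.22). In liver 0 of the 14 tested mitotic genes were lower or higher (limma; median -0.22), and Birc5, with the smallest p, had a value of -0.64 ± 0.30.

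Marker lists of cell types gave different counts in WAT, where 9.45% of all genes were called lower and 14.4% higher. Small counts on these short lists are not read as results about a cell type. Of 20 macrophage markers 14 were lower and 0 were higher, with a median of -1.08, and their summed level, in multiples of the 75th percentile on the linear scale, ran from 182 to 244 on sg/sg arrays and from 270 to 479 on WT arrays. Itgax fell by 3.50 ± 0.40, Mpeg1 by 2.03 ± 0.27 and Cd84 by 2.62 ± 0.36. Of 12 fibroblast and preadipocyte markers 5 were lower, led by Col1a1, Lum and Fap, with sums of 314 to 398 on sg/sg arrays and 371 to 450 on WT arrays. Of 11 adipocyte markers 6 were higher and 1 was lower, led by Pparg (0.86 ± 0.15), Pnpla2 and Plin1, and the lower one, named after its value was seen, was Lep (-0.84), with sums of 1162 to 1576 on sg/sg arrays and 690 to 1076 on WT arrays. Of 14 lymphocyte markers 0 were called in WAT (limma; smallest adjusted p 0.0508, for Cd8b1), with sums of 3.06 to 4.18 on sg/sg arrays and 2.94 to 4.14 on WT arrays. Of 10 endothelial markers 1, Vwf, was higher, with sums of 73.4 to 89.9 on sg/sg arrays and 56.3 to 79.2 on WT arrays. Of the 10 hepatocyte markers tested in WAT 0 were called, with sums of 1.45 to 7.31 on sg/sg arrays and 1.05 to 10.8 on WT arrays, and of 6 erythroid markers 1, Slc4a1, was higher, with sums of 74.2 to 102 on sg/sg arrays and 47.8 to 84.5 on WT arrays. The part of these cell types in the members' difference was not tested.

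In liver, of 18 macrophage markers tested, 6 were higher in sg/sg mice and 0 were lower, led by C1qa (0.80 ± 0.17), C1qc and Cd68, with sums of 164 to 222 on sg/sg arrays and 109 to 183 on WT arrays. Itgax, which fell in WAT, averaged -3.84 in sg/sg liver and -3.03 in WT liver and did not pass (adjusted p = 0.0813). The difference between tissues was not tested for these markers. Over all genes tested in liver 7.06% were called lower and 9.26% higher, and small counts on these short lists are not read as results about a cell type. Of 10 endothelial markers 4 were higher, led by Egfl7 (0.57 ± 0.09), Cldn5 and Tie1, with sums of 20.7 to 23.7 on sg/sg arrays and 14.7 to 19.7 on WT arrays. Of 11 hepatocyte markers 2, Tat and Fgb, were higher, with sums of 3810 to 4484 on sg/sg arrays and 2846 to 3774 on WT arrays. Of 11 fibroblast markers and 5 erythroid markers 0 were called (sums 45.6 to 71.4 and 63.0 to 104 on sg/sg arrays, and 45.7 to 82.8 and 53.2 to 72.9 on WT arrays). Of 7 adipocyte markers tested 2, Cfd and Cidec, were lower, with sums of 20 to 23.9 on sg/sg arrays and 24.1 to 68.5 on WT arrays, while Adipoq, Plin1, Lep and Retn did not pass the filter on dim probes. The part of these cell types in the liver values was not tested.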

How the data were processed

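Total RNA of 10 WAT and 10 liver samples was hybridised to 1-colour (Cy3) Agilent mouse arrays, 1 array per sample, on 6 slides, 3 for each tissue. Per the file headers, the authors extracted the deposited intensity of each spot with Agilent Feature Extraction 9.5.3.1 (the processed signal). The deposited value table holds the same intensities. Any scaling between arrays by the authors is not given in the sources used here.

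Here, log2 of the processed intensity minus the array's 75th percentile was used. Control spots were left out, outlier spots were set missing and the spots of a probe were averaged. Of 41174 probes, 22951 were named through RefSeq. Probes well above background on at least 4 of 10 arrays and missing on at most 2 were kept, and the brightest probe stood for its gene. Genotypes were compared in each tissue with limma 3.58.1 in R 4.3.3 (lmFit and eBayes, two-sided, Benjamini-Hochberg over all genes). The interaction and tissue contrasts came from 1 fit to all 20 arrays, with no term for mouse. That fit kept probes that passed the background filter in either tissue. The fits were tested on simulated data. The number of arrays limits the precision.

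Members, lists and tests were chosen with earlier results of these data known. Every member is given; values per array are given for the 8 with the smallest p in WAT, for those called in liver and for Tyms, list genes are the 3 or 4 with the smallest p, and tissue markers were added. The lymphocyte list in liver is not reported here. Alternatives are background correction, scaling, filter, probe choice, slide, replicate block and leaving out arrays.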

Additional observations from a re-analysis of the deposited data

Results flagged for a closer look

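Among 130 sets of 5 arrays, 1 per member and group, 19 single arrays in 17 genes lay far from the other 4 (gap over range above Dixon's critical value of 0.71). Chance gives about 1 in 20 such sets. WT liver replicate 2 gave 10 of the 19, in each case as the highest array of its group. Its levels were 1.06 for Cdt1, -0.51 for Chaf1a, 1.41 for Lig1, -0.18 for Mcm2, 1.51 for Mcm3, 2.31 for Mcm4, 0.12 for Mcm5, 3.25 for Mcm6, -0.92 for Pole and 0.36 for Rrm1. WT WAT replicate 2 gave 1, with Prim1 at 0.57 beside -0.21 to -0.01 on the other WT WAT arrays.

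The other 8 came from other arrays. In sg/sg WAT, Cdc45 was lowest on replicate 4 at -2.82 (others -2.32 to -2.18), Rfc3 was lowest on replicate 4 at -3.40 (others -2.64 to -2.35), and Rfc5 was highest on replicate 3 at 0.20 (others -0.15 to -0.06). In WT WAT, Ung was lowest on replicate 5 at 0.0068 (others 0.57 to 0.59). In sg/sg liver, replicate 2 held Cdc45 at -4.24 (others -4.92 to -4.82), Mcm7 at 1.88 (others 2.17 to 2.24) and Pola2 at -1.95 (others -1.68 to -1.59), and replicate 4 held Pole at -1.58 (others -2.32 to -2.18).

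For 6 members and for Dna2 the genotype difference differed between tissues by the interaction test, WAT minus liver. The values were -2.78 for Tk1, -1.81 for Dna2, -1.42 for Rrm2, -1.26 for Mcm10, -0.83 for Fen1, -0.83 for Gmnn and -0.74 for Pcna. WAT and liver were on different slides.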

How the results depend on the processing

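The count of members lower in sg/sg WAT, 29, was 11 with normexp background correction and 0 within slides 4, 5 or 6, where few arrays remain (limma; 18, 14 and 12 at an unadjusted p under 0.05), and between 21 and 29 when single arrays were left out. The median WAT difference was -0.35 within slide 5, -0.96 within slide 6 and from -0.82 to -0.63 without single arrays. With normexp, Cdc45 at 0.087 and Cdc6 at 0.033 turned positive in WAT, neither past the threshold, and the cause was not tested. The liver count, 6, was 2 with no filter on dim probes, 3 with the replicate block, 0 with slide as a fixed block and within slide 2, and from 1 (without WT liver replicate 3, or 4) to 8 without single arrays. The interaction count, 6, was 3 with normexp, 0 with slide as a fixed block, 5 to 17 without single arrays (17 without WT liver replicate 2) and 11 without WT replicate 2 of both tissues, an alternative chosen after seeing the data. The tissue count of members lower in WT WAT, 8, was 5 with quantile normalization and 6 to 8 without single arrays. No member was called higher in sg/sg mice in either tissue under any alternative run. With the replicate block, whose numbers are not stated to pair the samples, 20 members were lower in WAT, beside 1517 of all 22287 genes. Correlations of deviations between sg/sg and WT arrays of equal number ran from -0.16 to 0.10 in WAT and from -0.09 to 0.19 in liver. The best match of an array was the one of its own number for 1 of 5 in each tissue. Between WAT and liver arrays of equal number they ran from -0.0095 to 0.11 in WT mice and from -0.04 to 0.07 in sg/sg mice. There the own number was the best match for 1 of 5 in WT and 2 of 5 in sg/sg mice.

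Over all genes, liver calls were 1636 lower and 674 higher with median scaling, against 1221 lower and 1602 higher as reported, 2 and 0 with slide as a fixed block, 472 and 508 with no filter, 802 and 949 with slide as a random block, and 547 and 894 with the replicate block. Interaction calls were 1411 lower and 2268 higher with median scaling, against 1935 and 1990, and 946 and 944 with normexp. With normexp the WAT calls were 691 lower and 745 higher against 2107 and 3207, and the median of all genes was 0.41 in WAT, 0.37 for the interaction and -0.61 for the tissue contrast. In liver 31 of the 33 members were well above background on all 10 arrays, and Cdc45 and Cdc6 were not.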
